A study of Mus musculus with 6 samples.

Results

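The isometric and the control pool of mouse tibialis anterior RNA, both taken 48 h after the contractions, were compared on 4 of the 6 arrays of the series. The rule took the arrays titled 48h IC (A and B) against those titled 48h Control (A and B) and kept every probe set with a single gene in the platform annotation. That left 10833 of 12488 probe sets, which stand for 8251 genes, and 5574 of these genes were measured well enough to be compared. The tibialis anterior is the muscle of the shin that lifts the foot. Mice had been given 50 isometric contractions, in which the active muscle is held at a fixed length, by a non-invasive method. The control muscles came from the opposite legs and had been stimulated only as far as a measurement of isometric torque requires, so they too had contracted. The labels do not say whether these opposite legs belonged to the animals given isometric contractions or to those given eccentric contractions, where the muscle is stretched while active. For each group the RNA of 4 animals was combined and the pool was split onto 2 Affymetrix MGU74Av2 arrays, lettered A and B. Strain, age and sex are not stated in the labels. Every group was therefore 1 biological sample measured on 2 arrays, and all statements below describe these pools.

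Contracting muscle fibres release calcium and activate kinases that switch on immediate early genes, which encode transcription factors and normally return to low levels within hours. Isometric contractions injure the fibres less than lengthening contractions do and commonly serve as the comparison for them. Damaged muscle recruits macrophages through chemokines such as Ccl2, and heat shock proteins of the Hsp70 family, which refold damaged proteins, are common markers of stress in exercised muscle.

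A signal is the deposited intensity of a probe set, scaled so that all arrays have the same trimmed mean (500.3 on each of these 4 arrays). Signals under a floor of 120.8, the 40th percentile of all values, were raised to that floor before log2 was taken. Genes were compared if both arrays of either pool exceeded the floor. A call, higher or lower, required the pools' mean log2 signals to differ by at least 1, that is 2-fold, with the same sign in all 4 pairings of an isometric with a control array. A lack of overlap between the pools' arrays is therefore part of every call and adds nothing to it. Folds compare the geometric means of the floored signals. The number of arrays (2 in each pool) limits the precision, and the SD over them covers labelling and hybridisation, not animals. In RNA from whole muscle, fewer cells of a type and less RNA per cell cannot be told apart.

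The tissue label was checked first. All 8 fast-fibre markers of mouse muscle (Myh4, Myh1, Tnnt3, Tnni2, Actn3, Pvalb, Mylpf and Atp2a1) lay above the floor on all 4 arrays. The skin keratins Krt5 and Krt14, the T cell genes Cd3e, Cd3g and Cd8a, and the neutrophil genes S100a9 and Ngp lay below the floor on all 4 arrays. Other markers of these cell types did not. The neutrophil genes Camp and Csf3r and the lymphocyte gene Cd79a lay above the floor on all 4 arrays. Cd4 lay above it on both control arrays, and the keratin Krt10 on every array but control A. The 4 arrays had medians between 187 and 194, with 59.2% to 61.2% of probe sets above the floor. The arrays of a pool were not interchangeable. The geometric mean signal of the 18S ribosomal RNA control probe sets was 15860 on control A and 3870.1 on control B, 1761 on isometric A and 23476 on isometric B. The summed signal of the 8 fast-fibre markers was 257728 and 211290 on control A and B, and 183279 and 265781 on isometric A and B. Control A and isometric B were thus the brighter array of their pool for both quantities. The log2 ratio of 3′ to 5′ signal of Gapdh, a sign of RNA quality, was 0.27 on isometric B and −0.07 to −0.05 on the other 3 arrays. The part of these differences in the results below was not tested.

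Few genes differed between the pools. The 2-fold rule called 69 of the 5574 genes (1.24%), 51 of them higher (0.915%) and 18 lower (0.323%) in the isometric pool. Over probe sets in place of genes it called 84 of 6609 (1.27%). At a 1.5-fold threshold 217 genes (3.89%) were higher and 129 (2.31%) lower. The differences were modest, with a median fold of 2.22 among the higher calls and 2.18 among the lower ones. Of the higher calls 39 of 51 lay above the floor on all 4 arrays, whereas this held for 7 of the 18 lower calls. The closest isometric and control arrays were at least 2-fold apart for 13 of the 51 higher and 3 of the 18 lower calls, and at least 1.5-fold apart for 39 and 11.

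**Figure D1:**
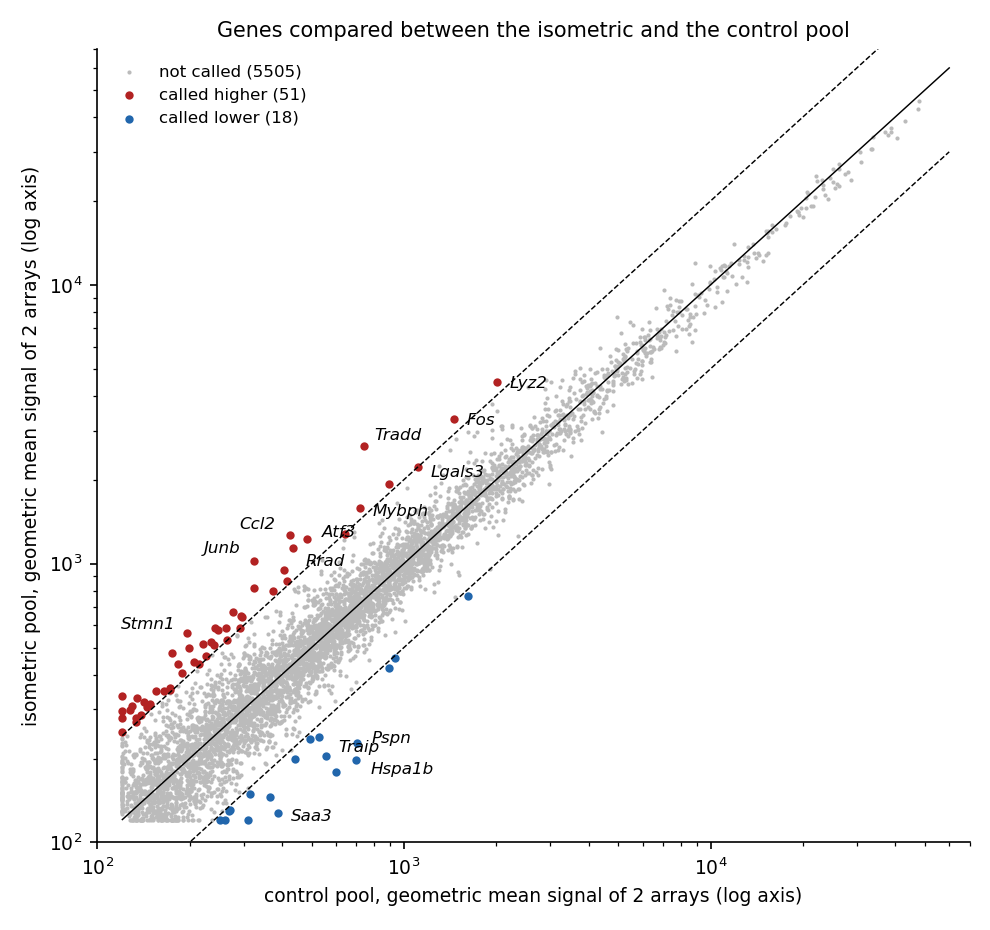
Geometric mean signal of the isometric pool (vertical, log axis) against that of the control pool (horizontal, log axis), floored at 120.8, for the 5574 genes compared. Each point is 1 gene, the solid line marks equal signals and the dashed lines mark 2-fold differences; red points are the 51 genes called higher, blue points the 18 called lower, and most of them lie at low signals.

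Arrays of the same RNA differed about as much as arrays of different pools. Control A and control B were at least 2-fold apart for 171 genes (3.07%), and isometric A and isometric B for 149 genes (2.67%). Single pairings of an isometric with a control array were at least 2-fold apart for 118 to 263 genes. The SD of the log2 difference across genes was 0.41 between the arrays of either pool and 0.38 to 0.47 in single pairings across the pools. Between the pools' means of 2 arrays it was 0.33, with 69 genes at least 2-fold apart. Averaging 2 arrays lowers the spread, so these pool values cannot be set against those of single arrays. limma, which estimates the spread between arrays from all 6 arrays and compares these pools rather than the conditions, called 1 gene, Hspa1b, at a Benjamini-Hochberg adjusted p of 0.0425, and 577 genes had an unadjusted p under 0.05. When the array letter was added as a replicate block, limma called 0 genes, with 520 at an unadjusted p under 0.05. The 69 calls are therefore described by their size. The number of genes called was 82 without control A, 206 without control B, 145 without isometric A and 123 without isometric B. With an array left out the rule has fewer pairings and less averaging, so these counts cannot be set against the 69. With each of the 4 arrays left out in turn, 19 of the 51 higher and 5 of the 18 lower calls were made every time. The 19 were Tradd, Junb, Ccl2, Stmn1, Pea15a, Rrad, Atf3, Lilr4b, Il1rn, Prpsap1, Ramp3, Hal, Akr1b8, Egr2, Gtf2f1, Fos, Lyz2, Mybph and Stab1, and the 5 were Hspa1b, Pspn, Saa3, Traip and Prkd2. On control B and isometric A alone, 20 of the higher and 11 of the lower calls were lost. Of those made with any 1 array left out, Stmn1 (a log2 difference of 0.89) and Traip (−0.79) did not pass there.

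**Figure D2:**
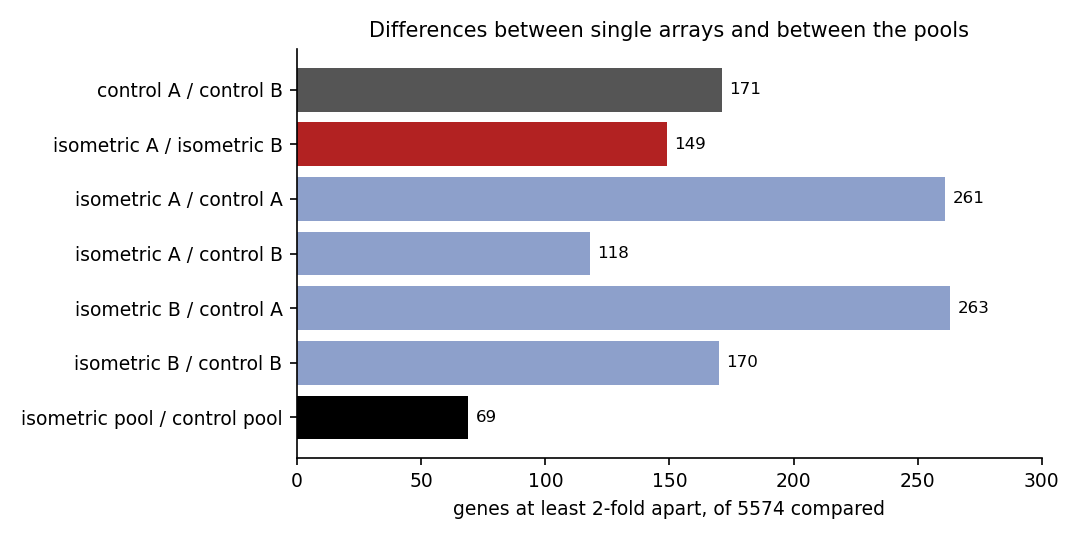
Number of genes at least 2-fold apart, of 5574 compared, between single arrays and between the pools' mean log2 signals. The 2 arrays of the control RNA differed for 171 genes and those of the isometric RNA for 149, and the 4 pairings across pools for 118 to 263.

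The clearest group among the higher calls was that of immediate early transcription factors. Fos, Junb, Egr2 and Atf3 were higher in the isometric pool, 4 of 20 compared members of the list against a background of 0.915%, and 0 were lower. Fos, the partner of Jun in the AP-1 complex, had signals of 1369.9 and 1550 on the control arrays and 3329.7 and 3302 on the isometric arrays. Both isometric arrays lay well above both control arrays, and the arrays of a pool were close together. The pools' means were 3316 ± 19.8 against 1459.9 ± 127 (SD, n = 2 arrays), a 2.28-fold difference, and the closest arrays were 2.13-fold apart. Junb, another Jun family member, had signals of 216 and 487 on the control arrays and 1065 and 984 on the isometric arrays. The control arrays were more than 2-fold apart themselves, and the fold was 3.16. Its other probe set, whose signals were 225.7 and 137.1 on the control arrays and 1392 and 479.1 on the isometric arrays, was higher too (log2 difference 2.21). Both Junb probe sets carry suffixes (_r_at and _i_at) that Affymetrix uses for sets that did not meet all design rules.

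Egr2, a zinc finger factor induced by growth factors and activity, had signals of 246 and 198 on the control arrays and 449 and 591 on the isometric arrays. Its fold was 2.33. Atf3, a factor induced by many kinds of cell stress, had signals of 515 and 453 on the control arrays and 1139 and 1319.8 on the isometric arrays. Neither isometric array came near the control arrays, and the fold was 2.54. The Atf3 probe set carries the suffix _f_at, used for probes shared with related sequences, and another Atf3 probe set, for which the control arrays lay below the floor, differed by 0.61 on the log2 scale. These 4 genes passed the 2-fold rule with any 1 of the arrays left out, and also on control B and isometric A alone. When the log2 signals of all probe sets of a gene were averaged, Fos (0.68) and Atf3 (0.65) did not pass, since the averages then include dim probe sets.

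Other members of the list differed less. Btg1, Fosb, Btg2, Ier2 and Klf4 differed by 0.87, 0.86, 0.85, 0.76 and 0.66 on the log2 scale and passed the 1.5-fold rule but not the 2-fold rule, and they were named after their values were seen. With the 4 called genes, 9 of 20 members were higher at 1.5-fold, against 3.89% of all genes. In all, 18 of 20 members lay above 0, against 49.0% of all genes, and the list's median was 0.52 (0.47 to 0.55 over the 4 pairings of arrays) against −0.01 over all genes compared. Egr1 had signals of 1373 and 1165 on the control arrays and 2217 and 1601 on the isometric arrays, a log2 difference of 0.57. Jun differed by 0.20 and Nr4a1, an orphan nuclear receptor induced by exercise, by 0.22, while Myc lay below the floor on all 4 arrays. Fosl2 (−0.58) and Klf9 lay below 0.

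**Figure D3:**
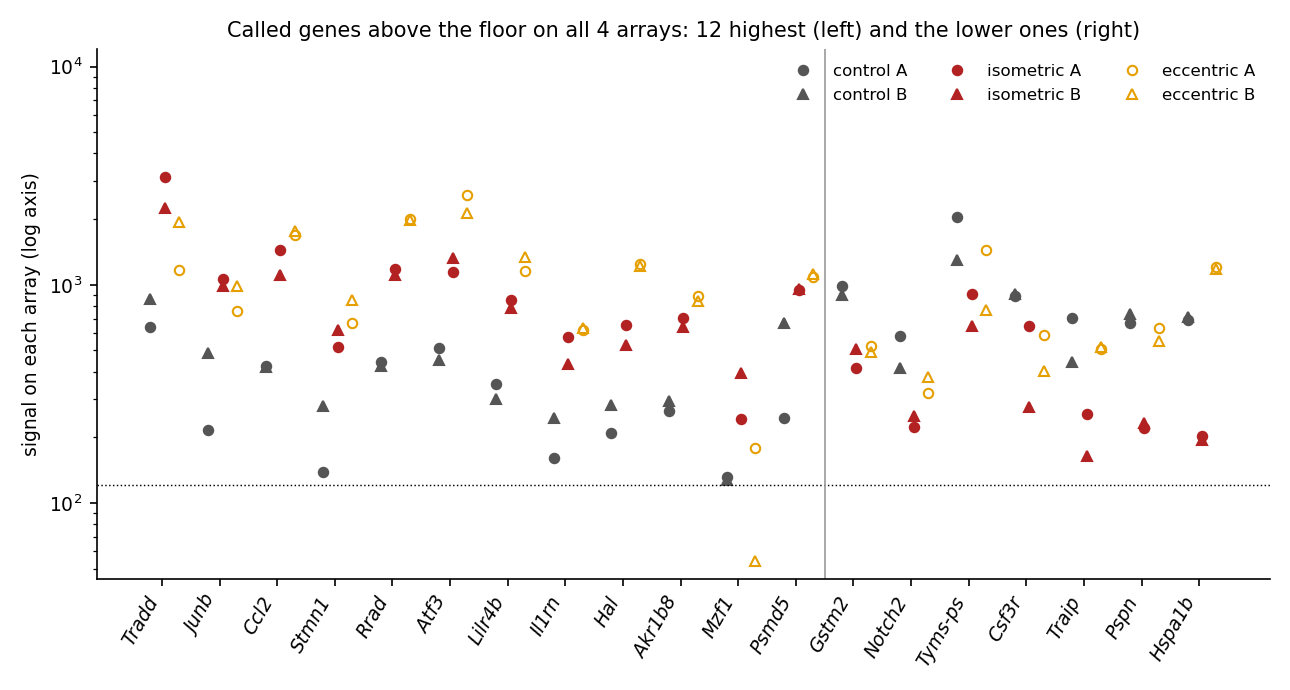
Signal on each array (log axis) of the 12 genes with the largest positive differences and of the 7 lower genes, among called genes measured above the floor throughout. Circles are A arrays and triangles B arrays, grey the control, red the isometric and open orange the eccentric pool, and the dotted line is the floor of 120.8; for Hspa1b both red points lie under both grey points, and both orange points lie above them.

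The eccentric pool, measured against the same 2 control arrays, is set beside these values as context only. There Fos had signals of 2127 and 1926 (log2 difference 0.47), Egr2 248 and 392 (0.50) and Fosb 677 and 743 (0.04), and their eccentric arrays lay below both isometric arrays. Junb had 758 and 991 (1.42). Atf3 had 2590.5 and 2136 (2.28), above the isometric arrays. Because the control arrays are shared, these comparisons are not independent of each other.

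The stretches of genome in front of these start sites are shown because the 4 called genes stand in one list and can be compared by a short motif. Whether they belong to one response in this muscle was not tested. A cAMP response element, to which CREB and ATF proteins bind, has the full form TGACGTCA, and the shorter TGACGT was searched here. The 150 bases ending at each annotated start are printed below, 5′ to 3′ on the gene's strand, from RefSeq on GRCm38.p6, with any TGACGT on either strand in capitals.

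Fos, chr12:85473740-85473889, plus strand: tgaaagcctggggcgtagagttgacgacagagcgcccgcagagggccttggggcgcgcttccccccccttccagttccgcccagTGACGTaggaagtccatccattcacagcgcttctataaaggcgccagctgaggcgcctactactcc

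Egr2, chr10:67537719-67537868, plus strand, the third of 5 annotated starts: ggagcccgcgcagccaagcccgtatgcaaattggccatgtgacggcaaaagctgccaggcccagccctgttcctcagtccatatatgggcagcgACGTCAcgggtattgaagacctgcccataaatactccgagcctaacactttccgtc

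Atf3, chr1:191183334-191183483, minus strand: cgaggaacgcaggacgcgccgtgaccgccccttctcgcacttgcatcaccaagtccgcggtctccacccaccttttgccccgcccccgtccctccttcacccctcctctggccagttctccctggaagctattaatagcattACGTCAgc

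Junb, chr8:84978749-84978898, minus strand: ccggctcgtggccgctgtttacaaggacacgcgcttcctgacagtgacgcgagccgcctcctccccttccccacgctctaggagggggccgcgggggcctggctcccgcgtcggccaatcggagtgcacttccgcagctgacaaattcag

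TGACGT was found 66 bases before the start of Fos, 8 bases before that of Atf3 and 56 bases before the printed start of Egr2. Of the 5 annotated starts of Egr2, 3 had a match in the 250 bases before them. It is the same site, 56, 57 and 117 bases before them, and the printed start is among these 3. No match to TGACGT lay in the 250 bases before the start of Junb, although its printed stretch holds the still shorter TGACG. Promoters with that shorter run were not counted. Of all 32851 promoters in the table, 6.47% held the motif in that window. This share is per promoter, whereas Egr2 has 5 annotated starts. The longer palindrome TGACGTCA, present in 1.55% of promoters, was in none of the 4 genes' windows. A match is a description of the sequence, and the arrays do not show whether any factor was bound there.

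Signals of chemokines and of cytokine and TNF signalling were higher for 4 genes. Ccl2, which attracts monocytes, had signals of 427 and 421 on the control arrays and 1439 and 1112 on the isometric arrays. The control arrays were nearly equal and both isometric arrays were far above them, with means of 1275 ± 231 against 424 ± 3.81 (SD, n = 2 arrays) and a fold of 2.98. Cxcl1, which attracts neutrophils, had signals of 299 and 285 on the control arrays and 548 and 634 on the isometric arrays, 2.02-fold higher. It fell just under the threshold without control B (0.98), without isometric B (0.91) or on control B and isometric A alone (0.94), while its other probe set was higher by 1.78. Of 12 compared chemokine and cytokine genes these 2 were called higher (0.915% of all genes) and 0 lower, and 9 lay above 0 (49.0% of all genes; median 0.37). Ccl7, a close relative of Ccl2, missed the rule narrowly with signals of 306 and 183 on the control arrays and 468 and 469 on the isometric arrays and a log2 difference of 0.99.

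Tradd, the adaptor that couples the TNF receptor to its kinases, had the largest difference among the higher calls as measured on the brightest probe set of each gene. Its signals were 642 and 856 on the control arrays and 3102 and 2249.6 on the isometric arrays. The isometric arrays were at least 2.63-fold above the control arrays, and the fold of the pools was 3.56. Its probe set carries the suffix _r_at, and the gene has no other probe set that could be set beside it. Tradd was the 1 called gene of 16 compared NF-kB and TNF genes. The TNF receptor Tnfrsf1a differed by 0.79, but by −0.01 on another probe set, and the list's median was 0.15. Il1rn, the natural antagonist of the interleukin-1 receptor, had signals of 161 and 246 on the control arrays and 577 and 432 on the isometric arrays. Its fold was 2.51. Among 23 compared cytokine receptors, antagonists and STAT3 targets it was the 1 gene called higher, and Csf3r and Saa3 were called lower. Ccr2, Socs1, Socs3 and Il4ra, named after their values were seen, had differences of 0.83, 0.78, 0.75 and 0.75. Il4ra lay below the floor on both control arrays, and another of its probe sets differed by −0.15.

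Macrophage genes were the largest called group. Of 22 compared genes, Lyz2, Msr1, Cd52, Lgals3 and Cd68 were called higher and 0 lower, against 0.915% higher and 0.323% lower over all genes. Lyz2, the lysozyme of myeloid cells, had signals of 1964 and 2070.1 on the control arrays and 4911 and 4081 on the isometric arrays. The isometric arrays were at least 1.97-fold above the control arrays, with means of 4496 ± 587 against 2017 ± 75.1 (SD, n = 2 arrays) and a fold of 2.22. Cd68, a lysosomal glycoprotein of macrophages, had signals of 720.3 and 569.8 on the control arrays and 1057 and 1556 on the isometric arrays. Its closest arrays were 1.47-fold apart, and its difference of 1.0 lay at the threshold. Lgals3, a galectin of activated macrophages, had signals of 1088 and 1134 on the control arrays and 2449 and 2032 on the isometric arrays, which is 2.01-fold and also at the threshold. Msr1, a scavenger receptor, was 2.24-fold higher from control signals near the floor (137 and 148), and Cd52, a surface peptide of leukocytes, 2.22-fold, with control arrays of 192 and 363 and isometric arrays of 589.6 and 581.

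Several of these calls rested on single arrays. Without control A, Cd52 (0.69) and Lgals3 (0.98) did not pass. Without control B, Cd68 (0.83) did not pass. Without isometric A, Lgals3 (0.87) did not pass, and without isometric B, Cd68 (0.72) and Msr1 (0.85) did not pass. The number of called members was 3 to 5 with 1 array left out and 2 on control B and isometric A alone, where Cd52 (0.70), Cd68 (0.89) and Msr1 (0.79) did not pass. Under quantile normalization it was 3, as Cd68 (0.96) and Lgals3 (0.95) fell just short. With all probe sets of a gene averaged, dim ones included, Lyz2 (0.58), Cd68 (0.50) and Msr1 (0.49) did not pass, and with the floor at the 55th percentile Cd52 (0.99) and Msr1 (0.41) did not. Over the whole list 20 of 22 members lay above 0 (49.0% of all genes), 10 were higher and 0 lower at 1.5-fold (3.89% and 2.31% of all genes), and the median was 0.50 (0.40 to 0.55 over the 4 pairings), or 0.37 on control B and isometric A alone. The summed signal of the list was 15475 and 16386 on the control arrays and 25925 and 24915 on the isometric arrays, and 46005 and 45305 on the eccentric arrays. Adgre1, the macrophage marker F4/80, differed by 0.65, Cd14 by 0.87 and Csf1r by 0.40.

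Genes called higher outside the list but known from myeloid cells included Lilr4b, Stab1, Spi1 and Ifi30. Called lower were Saa3 (−1.61), made by macrophages and other cells, and the neutrophil marker Csf3r (−1.09). Lilr4b, an inhibitory leukocyte receptor, had signals of 350 and 300.4 on the control arrays and 849.7 and 786 on the isometric arrays (2.52-fold). Stab1, a scavenger receptor of macrophages and sinusoidal endothelium, had signals of 412 and 419 on the control arrays and 850.4 and 877 on the isometric arrays (2.08-fold). In both genes the arrays of a pool were close together and the pools were more than 2-fold apart at their closest arrays. Spi1, the myeloid transcription factor PU.1, was 2.04-fold higher, but its control arrays were 59.0 and 248, and without control A the difference was 0.51. Ifi30, a lysosomal thiol reductase, was 2.11-fold higher, and 0.74 on the log2 scale without isometric B. MHC class II genes, which macrophages also express, had a median of 0.37 over 8 compared members, and 0 were called. Of 6 neutrophil markers, S100a9 and Ngp were below the floor throughout and Csf3r was called lower. The summed signal of the 6 was 1563 and 1449 on the control arrays and 1364 and 865 on the isometric arrays, and that of the 5 without Csf3r was 679 and 542 against 720 and 588.

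**Figure D4:**
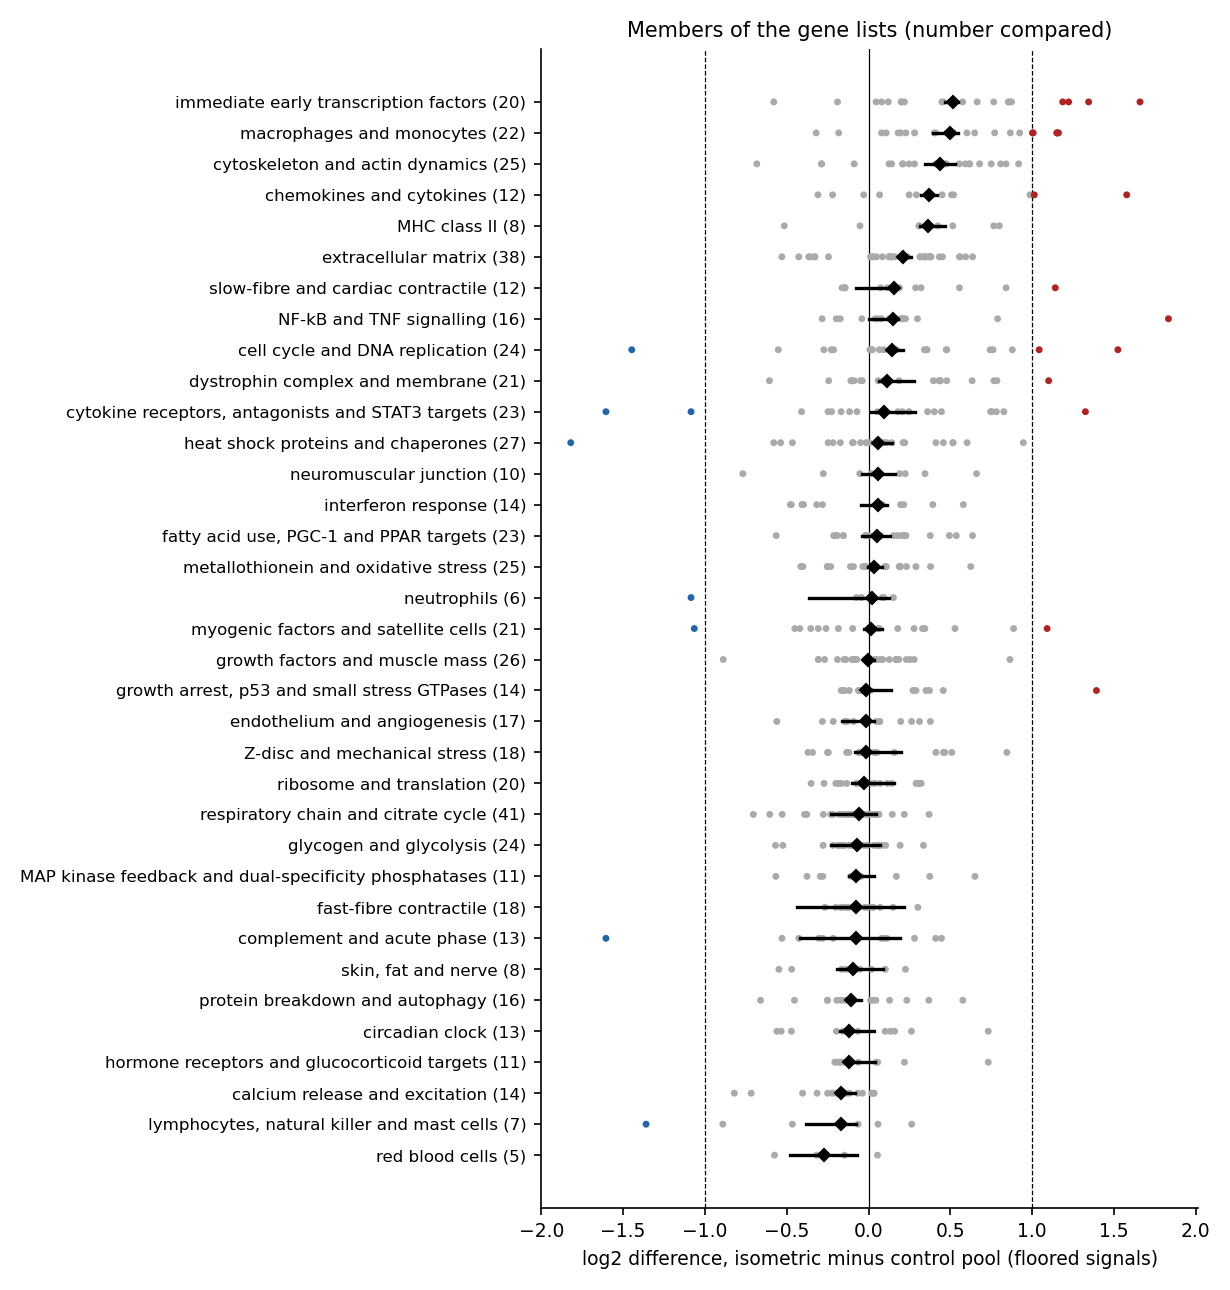
Log2 difference (isometric minus control) of every compared member of 35 gene lists, with the number compared in parentheses. Each dot is 1 gene (red called higher, blue called lower, grey not called), the diamond is the list's median, the bar is the range of that median over the 4 pairings of arrays, and the dashed lines mark 2-fold differences; the medians of immediate early, macrophage and cytoskeleton genes are the 3 highest, at 0.52, 0.50 and 0.44.

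Mybph, S100a4 and Id2 were the higher calls in lists of muscle genes. Rrad was the 1 called gene of 14 in the list of growth arrest, p53 and small stress GTPases, and Ramp3 and Kcnn1 stand in no list. Rrad, a small GTPase that restrains calcium channels and appears in regenerating muscle, had signals of 443 and 426 on the control arrays and 1178 and 1104 on the isometric arrays. The arrays of each pool were nearly equal, and the means were 1141 ± 52.1 against 435 ± 12.1 (SD, n = 2 arrays), a 2.62-fold difference. Mybph, myosin-binding protein H of the thick filament, had signals of 701 and 737 on the control arrays and 1509 and 1663 on the isometric arrays. The isometric arrays were at least 2.05-fold above the control arrays. Mybph was the 1 called gene of 12 compared in the list headed slow-fibre and cardiac contractile. The median of that list was 0.15 (−0.08 to 0.16 over the pairings of arrays). S100a4, a calcium-binding protein, was 2.14-fold higher (1059 and 759.5 on the control arrays and 1998 and 1851 on the isometric arrays) and missed the rule without control B (0.86). Id2, an inhibitor of the myogenic bHLH factors, was 2.13-fold higher, and without control A (0.89) or isometric A (0.86) it did not pass. Ramp3, a partner of the calcitonin receptor family, was below the floor on both control arrays and was at least 2.44-fold higher, with isometric signals of 329 and 265. Kcnn1, a calcium-activated potassium channel, was 2.34-fold higher, but control A (469.9) lay close to isometric A (526), and without control B the difference was 0.30.

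Contractile and metabolic genes were largely level between the pools. Of 18 fast-fibre contractile genes 0 were called, and their median was −0.08, although it ran from −0.44 to 0.22 over the 4 pairings of arrays. This spread has the same order as the 18S signals, with control A and isometric B brighter. Calls were also 0 of 24 genes of glycogen and glycolysis, 0 of 23 of fatty acid use and 0 of 41 of the respiratory chain and citrate cycle. Their medians were −0.07, 0.05 and −0.06. Above 0 lay 5 of 18, 9 of 24, 14 of 23 and 10 of 41 members of these 4 lists, against 49.0% of all genes. The respiratory list had 0 members higher and 2 lower at 1.5-fold (3.89% and 2.31% of all genes). Its median ran from −0.23 to 0.05 over the pairings. Hk2, the hexokinase of muscle, had signals of 7539.8 and 6785 on the control arrays and 7233 and 7574 on the isometric arrays, and the groups overlapped. Pdk4, the kinase that holds back pyruvate oxidation, differed by 0.22 and the uncoupling protein Ucp3 by 0.15, again with overlapping groups, and Ppargc1a lay too near the floor to be compared. Vegfa differed by −0.56 (signals 392 and 404 on the control arrays and 315 and 232 on the isometric arrays), without overlap but short of 1.5-fold.

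The Z-disc and mechanical-stress list held 18 compared genes, of which 0 were called, with a median of −0.02. Ankrd1, a titin-associated stress protein, had signals of 273 and 473 on the control arrays and 635 and 655 on the isometric arrays. The groups did not overlap, but the log2 difference of 0.85 fell short of the rule and spanned 0.43 to 1.26 over the pairings. Ankrd2 differed by 0.47, the LIM protein Csrp3 by 0.51, Xirp1 by 0.03 and desmin (Des) by 0.16. Against the same control arrays, the eccentric pool differed by 3.04, 2.02, 2.52, 2.24 and 0.18 for these 5 genes in the same order. Myog, the factor of differentiating myoblasts, had signals of 464 and 415 on the control arrays and 618 and 1062 on the isometric arrays and a difference of 0.89. Mstn, the inhibitor of muscle growth, differed by −0.31 and Gadd45a by 0.37, and neither was called.

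Cytoskeletal genes lay mostly above 0 without large changes. Of 25 compared members 21 lay above 0, 8 were higher and 1 lower at 1.5-fold and 0 were called at 2-fold, against 49.0% of all genes above 0 and 3.89% higher and 2.31% lower at 1.5-fold, with a median of 0.44 (0.35 to 0.53). Tmsb10 (0.92), the actin-capping protein Capg (0.84), the tubulin Tubb6 (0.81) and nestin (Nes, 0.75) had the largest differences, and Vim had the lowest (−0.68), all named after their values were seen. Other probe sets of Capg differed by 0.62 and −0.24. Extracellular matrix genes showed smaller differences, with 31 of 38 above 0 (49.0% of all genes), a median of 0.21, and 0 called. The membrane repair genes Anxa1, Anxa2 and Anxa5, also named after their values were seen, differed by 0.78, 0.77 and 0.63. Other probe sets of Anxa1 differed by 1.07, which passes the 2-fold rule, and by 0.40. Of 24 cell cycle genes Stmn1 and Mcm5 were called higher and Traip lower. Stmn1, which destabilises microtubules in dividing cells, had signals of 139 and 279 on the control arrays and 518 and 618 on the isometric arrays (2.87-fold). Mcm5, a subunit of the replicative helicase, was 2.06-fold higher, but its log2 difference was 0.39 without control A and 0.91 without isometric B.

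The remaining higher calls were enzymes and regulators in no common list. Hal, which degrades histidine, had signals of 209 and 279.8 on the control arrays and 654 and 527 on the isometric arrays (2.43-fold), and Akr1b8, an aldo-keto reductase, 263 and 294 on the control arrays and 705 and 641 on the isometric arrays (2.42-fold). The pools were well apart in both genes. Pea15a, a regulator of ERK and of death receptor signalling, lay below the floor on both control arrays and was at least 2.78-fold higher, with isometric signals of 386 and 292. Gtf2f1, a subunit of the general factor TFIIF, was likewise at least 2.32-fold higher and Tmem214 at least 2.05-fold, both from a control pool below the floor. Tmem214 did not pass without isometric A (0.89). Psmd5, an assembly factor of the proteasome, had signals of 245 and 669 on the control arrays and 944 and 957 on the isometric arrays. Control B lay closer to the isometric arrays than to control A, and the difference was 0.51 without control A. Mzf1, a zinc finger factor, had signals of 131 and 128 on the control arrays and 241 and 394 on the isometric arrays, with control arrays just above the floor, and the difference was 0.90 without isometric B. Enzymes of carbohydrate, amino acid, polyamine and glutathione metabolism were Pklr (1.24), Tkt (1.14), Psat1 (1.07), Sat1 (1.11) and Gss (1.0). Each of these 5 failed the rule with some array left out. That was control A for Pklr (0.64), Tkt (0.25) and Gss (0.89), control B for Psat1 (0.98), and isometric A for Sat1 (0.72) and Gss (0.81). Another Gss probe set had the opposite sign (−0.21), the 1 such case among 12 called genes with another compared probe set. Of these 12 other probe sets, 2 (Junb and Cxcl1) were called the same way, and those of Map11 and Cr1l differed by 0.07 and 0.03. Probe sets too dim to be compared are outside this count. Among them, probe sets of Mcm5 (−0.59), Msr1 (−0.17) and Csf3r (0.18) had the sign opposite to the call. The other higher calls were Map11 (1.45), Prpsap1 (1.29), St6galnac4 (1.22), Degs2 (1.17), Dbnl (1.15), Ptpru (1.10), Cr1l (1.10), Slc48a1 (1.09), Lrrfip2 (1.08), Icmt (1.06), Ppp2r5d (1.05), Src (1.05), Pam (1.03) and Nupr1 (1.02), given with their log2 differences. Of these, Prpsap1 was called with any 1 array left out, and each of the others failed the rule with at least 1 array left out.

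Hspa1b led the lower calls. Hspa1b encodes an inducible Hsp70 chaperone, and its signals were 687 and 711 on the control arrays and 202 and 194 on the isometric arrays. The arrays of each pool were nearly identical, and the isometric arrays were at least 3.41-fold below the control arrays. The means were 198 ± 5.31 against 699 ± 16.9 (SD, n = 2 arrays), a 3.53-fold difference. Hspa1a encodes a nearly identical protein from a neighbouring copy, and its probe set had signals of 601 and 635 on the control arrays and 389.5 and 438 on the isometric arrays. Both isometric arrays were below both control arrays here too, but the log2 difference of −0.58 did not pass the rule. Because the copies are nearly identical, the probes of either set may bind transcripts of both, and how the signal divides between them is uncertain. In the eccentric pool the same probe sets had signals of 1212 and 1179 and 2770.4 and 2600, above the control arrays. Hspa1b was the 1 called gene of 27 compared heat shock proteins and chaperones, whose median was 0.06. Hspa5, the Hsp70 of the endoplasmic reticulum, lay at the other end with 0.95 (1967 and 1923 on the control arrays and 3420.3 and 4104 on the isometric arrays), just short of a call.

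The 250 bases before the start of each copy are printed because they show how alike the copies are also outside the coding sequence. Capitals mark the one match to GAANNTTC, an inverted pair of the heat shock element's unit, which reads the same on both strands.

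Hspa1a, chr17:34972157-34972406, minus strand: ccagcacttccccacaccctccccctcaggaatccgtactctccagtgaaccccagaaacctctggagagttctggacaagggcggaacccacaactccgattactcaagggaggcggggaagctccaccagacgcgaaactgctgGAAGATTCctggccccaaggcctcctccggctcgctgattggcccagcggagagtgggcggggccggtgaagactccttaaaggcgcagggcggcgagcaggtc

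Hspa1b, chr17:34959239-34959488, minus strand: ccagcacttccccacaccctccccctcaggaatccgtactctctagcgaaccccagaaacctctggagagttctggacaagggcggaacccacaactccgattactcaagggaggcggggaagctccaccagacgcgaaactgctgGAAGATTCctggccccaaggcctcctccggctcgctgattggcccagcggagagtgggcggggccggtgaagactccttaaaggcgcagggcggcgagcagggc

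From RefSeq on GRCm38.p6, the stretches were 98.8% identical. The 3 differences were C44T, T47C and T249G, with the Hspa1a base first and positions counted from 1 at the 5′ end of the printed run. The match lay 104 bases before the start in both copies, and 6.69% of all promoters held one in their 250 bases. The sequence therefore does not separate the copies at this motif, and the arrays say nothing of factor binding.

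Pspn, a neurotrophic factor of the GDNF family, had signals of 666 and 738 on the control arrays and 221 and 233 on the isometric arrays. The isometric arrays were at least 2.86-fold below the control arrays, and the fold of the pools was 3.09. Saa3, an acute phase serum amyloid made by macrophages and other cells, had signals of 441 and 344 on the control arrays and 136 and 62.6 on the isometric arrays. Isometric B lay below the floor, and the pools were 3.04-fold apart on floored signals. In the eccentric pool Saa3 had signals of 1592 and 1824, above both control arrays. Traip, a ubiquitin ligase of DNA replication, had signals of 704 and 443 on the control arrays and 256 and 164 on the isometric arrays (2.73-fold lower), and on control B and isometric A alone the difference was −0.79. Prkd2, protein kinase D2, was 2.51-fold lower (298 and 448 on the control arrays and 175 and 76.0 on the isometric arrays), but another probe set of the gene differed by −0.10.

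Csf3r, the receptor of granulocyte colony-stimulating factor and a neutrophil marker, had signals of 884 and 907 on the control arrays and 644 and 276 on the isometric arrays, 2.12-fold lower. It did not pass without isometric B (−0.48). Cd4, the co-receptor of T helper cells, was below the floor on both isometric arrays and at least 2.57-fold lower, but the control arrays were 460.2 and 209, and without control A the difference was −0.79. Notch2, a receptor of satellite cells and other cells, was 2.09-fold lower (584 and 417 on the control arrays and 222 and 250.3 on the isometric arrays), and Gstm2, a glutathione transferase, 2.04-fold (984 and 893 on the control arrays and 416 and 509.8 on the isometric arrays). In both genes the groups did not overlap, as the rule requires. Without control A, Notch2 (−0.82) and Gstm2 (−0.96) did not pass, nor without isometric A (−0.98 and −0.88). Other probe sets of Notch2 (−0.22) and Gstm2 (−0.61) differed by less.

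The suffix _r_at, which marks a probe set that broke a design rule, was carried by 6 of 18 lower calls (33.3%) and 2 of 51 higher calls, against 203 of 5574 genes compared (3.64%). The 6 were Tmem129, Prkd2, Prxl2a, Gstm2, Tyms-ps and Prpmp5, and other probe sets of the first 3 differed by −0.07, −0.10 and −0.28. Tmem129 had signals of 309.6 and 1168 on the control arrays and 266 and 65.8 on the isometric arrays, so its control arrays were further apart than control A and isometric A, and without control B the difference was −0.79. For 2210010C04Rik isometric A (473) was level with control A (474), and without control B the difference was −0.99 and without isometric B −0.16. Tyms-ps, a pseudogene of thymidylate synthase whose probes may bind other transcripts, had signals of 2039.8 and 1293 on the control arrays and 912 and 645 on the isometric arrays and did not pass without control A (−0.75) or isometric B (−0.83). Mup5 and Syt2 were below the floor on both isometric arrays, at least 2.16-fold and 2.08-fold lower, and did not pass without control A (−0.96 and −0.47). Prxl2a (−1.14) did not pass without isometric A (−0.41). The other lower calls were Prpmp5 (−1.08), Mst1r (−1.05) and Th (−1.05), which had differences of −0.77, −0.94 and −0.93 without isometric B. Apart from the macrophage and immediate early genes, no list of the 35 had more than 2 called members in one direction.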

How the data were processed

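The series table deposited by the authors holds linear intensity values, 1 for each probe set on each array. No source used here names the software, background correction or probe summary behind them. The trimmed means (2% removed at each end) were 500.3 on all arrays, as scaling to 1 target gives, so a shift common to most genes would be hidden. Each array was rescaled to the common trimmed mean (factors of at most 1.00002), values under the 40th percentile of all 6 arrays (120.8) were raised to it, and log2 was taken. Genes were named from the platform annotation, in which 10833 probe sets had 1 gene, 396 several and 1193 none, beside 66 control probe sets. Of the 10833, 10817 matched a RefSeq gene table of GRCm38.p6 by gene ID. For the 2073 genes with several probe sets, the one with the highest mean signal was used.

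Arrays were grouped by their titles. Each pool is 1 sample, so no p-value for the contractions was computed. limma (lmFit and eBayes, Benjamini-Hochberg at 0.05) was run on all 6 arrays and measures the spread between arrays only. Genes may be named when called, with full values for the 12 highest and 12 lowest above the floor on all 4 arrays, for those with the largest bounds, for called list members and for 25 preset genes. Others were chosen after their values were seen. The comparison, the 35 gene lists and these rules were chosen with earlier results of these data known, and list counts are descriptions without a test. Alternatives changed the floor, the filter, the fold, the scaling and the choice of probe set, and left out arrays. Of the 69 called genes 57 had an entry in the RefSeq promoter table, with none for Ccl2 and Rrad. The work used limma 3.58.1 in R 4.3.3, and numpy 2.4.6, pandas 2.3.3 and matplotlib 3.10.9 in Python 3.11.15.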

Additional observations from a re-analysis of the deposited data

Results flagged for a closer look

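Hspa1b was lower on both isometric arrays and higher on both eccentric arrays than on the control arrays they share, with a log2 difference of −1.82 for the isometric pool and 0.77 for the eccentric pool. Saa3 did the same, with −1.61 and 2.13. With 1 pool in each group, the difference between the 2 kinds of contraction was not tested, and the cause was not tested.

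Probe sets with several genes or none in the annotation were left out of the comparison. By the same 2-fold rule 7 of the 727 compared were higher and 6 lower in the isometric pool. Among the higher ones the largest difference was that of a probe set with no gene in the annotation, with signals of 4048 and 3407 on the control arrays and 14028 and 13077 on the isometric arrays, and a log2 difference of 1.87. Of the 7, a probe set shared by Lyz1 and Lyz2 differed by 1.12 and one shared by Lilrb4a and Lilr4b by 1.0, the same way as the single-gene probe sets of Lyz2 and Lilr4b. A probe set shared by Bcl2a1 genes, which encode inhibitors of cell death, differed by 1.28.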

How the results depend on the processing

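No called gene changed direction under any alternative run. A call already required the same sign in all 4 pairings. Leaving out arrays or changing the floor, the filter or the fold therefore could not reverse it. Only quantile normalization and the averaging of probe sets could have done so. The 69 calls (51 higher, 18 lower) became 188 (111 and 77) with the floor at the 25th percentile, 31 (23 and 8) with the floor at the 55th, 346 (217 and 129) at 1.5-fold, 46 (39 and 7) for genes above the floor on all 4 arrays, 45 (38 and 7) with all probe sets of a gene averaged, 73 (54 and 19) after quantile normalization, and 136 (81 and 55) on control B and isometric A alone. With 1 array left out there were 82 to 206 calls, 51 to 133 of them higher and 31 to 73 lower. Leaving arrays out gives the rule fewer pairings to meet and less averaging, so these counts cannot be set against the 69. The highest number came without control B, which leaves control A alone in its pool. Control A was at least 2-fold apart from isometric A and B for 261 and 263 genes, and control B for 118 and 170. The cause of these differences between arrays was not tested. limma called 1 gene, 1 after quantile normalization, and 0 with the array letter as a replicate block (520 at an unadjusted p under 0.05), on the 4 arrays alone (415) or with 1 array left out (486 to 722); the labels do not say that a letter marks a shared batch. Of gene differences, 840 comparisons with an alternative stayed on their side of the threshold, 147 fell below it and 4 rose past it. Low signal over background limits the lower calls, of which 7 of 18 lay above the floor on all 4 arrays.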
